A study of Homo sapiens with 18 samples.

Results

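JQ1 was compared directly with imatinib after 6 h in GIST-T1, a human cell line from a gastrointestinal stromal tumor (GIST), a tumor of the gut wall that commonly carries an activating mutation of the receptor tyrosine kinase KIT. The comparison took the 3 libraries of cells given JQ1 at 500 nM for 6 h and the 3 libraries of cells given imatinib at 500 nM for 6 h, 6 of the 18 RNA-seq libraries in the series, and covered every gene in the table. No solvent library entered the test. Levels in the 3 DMSO libraries, whose labels give no time, are set beside the drug values as background, and the same comparison in 6 other libraries, treated with JQ1 or imatinib at 500 nM for 24 h, shows how the difference between the drugs stood later. Of 23621 genes, 12009 reached at least 1 FPKM (fragments per kilobase of transcript, scaled to sequencing depth) in at least 3 of the 6 libraries and were tested. Nothing in the labels tells if a group came from 3 cultures or from 1, and p-values therefore measure only the spread between these libraries, which may be technical. All libraries come from 1 cell line.

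Imatinib blocks the kinase activity of KIT. Signals from active KIT run through RAS and the kinase ERK, which turn on early response genes and ETS factors, and through PI3K and AKT, which keep FOXO transcription factors out of the nucleus. JQ1 acts on chromatin instead: it displaces BET proteins, such as BRD2, from acetylated histones, and with them the elongation factor P-TEFb, on which strong enhancers and many highly transcribed genes depend. One drug thus acts on the signal and the other on the reading of the genes, and the question put to the data is which genes stood apart between them at a matched time.

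Values are on the deposited FPKM scale, and how it was normalized is not given. Spike-in RNA was added after the RNA had been normalised to cell count. The scale was taken to follow it because spike-in medians differed by only -0.02 to 0.03 log2 between the 6 libraries. On such a scale a lower level stands for less RNA per counted cell. The cell counts are not given, so an error in them cannot be told from less RNA per cell. The number of reads behind each library is unknown. Libraries of a group had Pearson r between 0.984 and 0.992 across tested genes on the log2 scale, and libraries of different groups 0.946 to 0.952. All 8 GIST markers checked, KIT and ANO1 among them, were at 1 FPKM or more, with summed levels of 2543 to 2847 FPKM under imatinib and 2033 to 2360 FPKM under JQ1. Of 5 epithelial markers, 3 reached 1 FPKM (186 to 211 FPKM in sum under imatinib and 229 to 276 FPKM under JQ1), as did 2 of 6 leukocyte markers (7.95 to 10.0 FPKM and 6.04 to 6.58 FPKM). None of 3 mast cell, 3 endothelial or 4 neural and glial markers did. Their part in the results was not tested. Summed FPKM over all genes was 1284579 ± 27412 (SD, n = 3) with imatinib and 1244792 ± 117241 (SD, n = 3) with JQ1, a ratio of 0.969, which the exact two-sided permutation test did not separate (p = 0.7, where the smallest p possible for 3 against 3 is 0.1). Without JQ1 replicate 2 that ratio was 1.01.

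In total 266 genes were higher with JQ1 than with imatinib (2.22% of those tested) and 1206 were lower (10.0%). Each list count below is to be read beside these shares of all tested genes. A gene was called higher or lower where the Benjamini-Hochberg adjusted p of limma was below 0.05 and the difference in log2(FPKM + 1) was at least 1 in size, and the added 1 makes the difference smaller than the ratio of the FPKM values for genes at low levels. The typical gene lay somewhat below its imatinib level: the median log2 difference of tested genes was -0.31, and the middle of the distribution, from the 25th to the 75th percentile, ran from -0.63 to -0.03. Ratio rescaling, in which a library is divided by the median ratio of its genes to their average, moved that median to -0.01 and gave 437 higher (3.64%) and 539 lower (4.49%) calls. Of the 266 higher calls 247 were also called on that scale, and of the 1206 lower calls 539. Either direction together held 12.3% of tested genes on the deposited scale and 8.13% after ratio rescaling. Lower calls thus outnumbered higher ones far more on the deposited scale. With each library brought to one total, 277 genes were higher and 1079 lower.

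The called genes differed also in where DMSO stood. Among the 266 genes higher with JQ1, the DMSO mean lay between the imatinib and JQ1 means for 156 (58.6%), above both for 93 (35.0%) and below both for 17 (6.4%). Of the 1206 lower calls, DMSO lay above both drug means for 906 (75.1%) and between them for 291 (24.1%). Over all tested genes DMSO was above both for 92.5% and between them for 6.7%. These are positions of means, with no test. Among the higher calls 46 were small RNA or clone names, 29 of them small nucleolar RNA genes, which lie inside other genes and can share reads with them; 66 lower calls were of this kind.

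**Figure D1:**
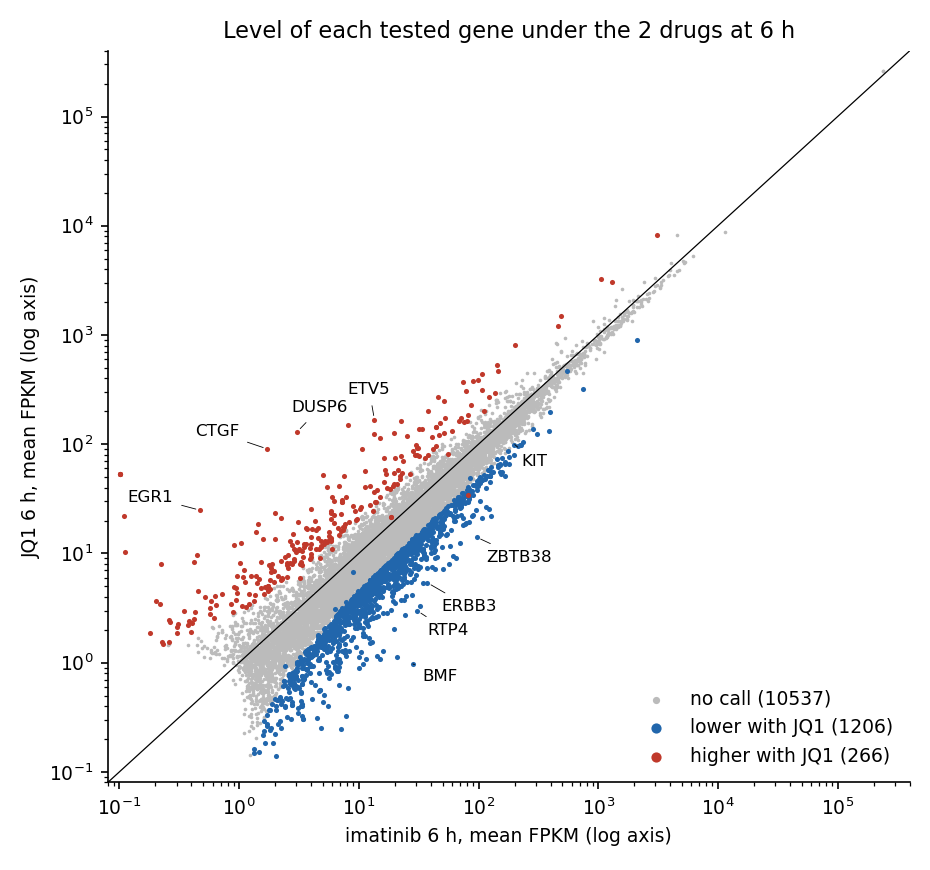
Mean FPKM of each of 12009 tested genes with imatinib for 6 h (x axis, log scale) and JQ1 for 6 h (y axis, log scale), 3 libraries each, with the line of equal level; red points are the 266 genes higher with JQ1 and blue points the 1206 lower ones. Most of the cloud lies slightly below the line, CTGF, EGR1 and DUSP6 stand far above it, and BMF and RTP4 stand far below it.

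Genes that report ERK activity gave some of the widest gaps, with the JQ1 cells on the high side. Of the 24 genes of ERK pathway output 18 passed the filter; of these 7 were higher with JQ1 and 0 lower, and their median log2 difference was 0.78 against -0.31 over all tested genes. After ratio rescaling 9 were higher and 0 lower. The list holds feedback inhibitors, which ERK induces and which then act back on the pathway, and ETS transcription factors that ERK controls. DUSP6, a phosphatase that removes the activating phosphates of ERK, was at 3.01, 2.22 and 3.96 FPKM in the imatinib libraries and at 127, 120 and 144 FPKM in the JQ1 libraries. Every JQ1 library was thus more than an order of magnitude above every imatinib library, and all 3 lay below the DMSO libraries (181, 238 and 306 FPKM). The DUSP6 log2 difference was 5.03 ± 0.11 (SE, n = 3 per group). SPRY4, a Sprouty protein that dampens signaling from receptor kinases, was at 4.53, 4.42 and 6.10 FPKM with imatinib and 49.6, 50.6 and 55.2 FPKM with JQ1, a log2 difference of 3.14 ± 0.11. Its relative SPRY2 was among the most abundant of these genes in DMSO, at 640 FPKM on average. It was at 44.9, 42.4 and 50.2 FPKM with imatinib and 268, 245 and 301 FPKM with JQ1 (log2 difference 2.54 ± 0.11). The ETS factor ETV5 was at 12.8, 12.4 and 15.3 FPKM with imatinib and 168, 156 and 179 FPKM with JQ1 (3.55 ± 0.10), and at 246 FPKM on average in DMSO. For each of these 4 genes the drug groups did not overlap and DMSO was above both. Over the list, DMSO was above both drug means for 6 of the 7 higher members, beside 92.5% of all tested genes and 35% of all higher calls.

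CCND1, the cyclin D1 gene, showed a narrower gap at 6 h. It was at 13.0, 12.1 and 14.8 FPKM with imatinib and 22.9, 21.5 and 25.3 FPKM with JQ1, with no overlap, and its log2 difference of 0.76 ± 0.11 missed the size threshold. After ratio rescaling it was 1.07 and passed.

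Immediate early genes, which cells switch on within minutes of a growth signal without new protein synthesis, stood on the same side. Of 17 tested, 9 were higher with JQ1 and 0 lower, with a median log2 difference of 1.14, and 14 of the 17 had every JQ1 library above every imatinib library, which held for 11.4% of all tested genes. The list holds 24 genes, and EGR1 and FOS, below 1 FPKM in every imatinib library, passed the filter only through the JQ1 libraries, so these counts describe the genes that passed and support nothing beyond them. EGR1, a zinc finger factor induced by ERK, was nearly silent with imatinib (0.529, 0.392 and 0.490 FPKM) and stood at 22.4, 23.3 and 28.9 FPKM with JQ1, close to the DMSO libraries at 22.2, 23.4 and 31.6 FPKM. The EGR1 log2 difference was 4.13 ± 0.12 (SE, n = 3 per group). CTGF, a secreted matricellular protein that is also a classic target of the YAP and TEAD factors, had the largest difference among the genes named here. It was at 1.8, 1.24 and 2.11 FPKM with imatinib, at 86.1, 89.7 and 95.9 FPKM with JQ1 and at 15.6, 18.7 and 25.1 FPKM in DMSO, so JQ1 libraries were above both other groups (log2 difference 5.09 ± 0.11). FOS, the AP-1 subunit, was at 0.164, 0.142 and 0.298 FPKM with imatinib and 3.27, 3.72 and 3.95 FPKM with JQ1 (1.95 ± 0.13). CYR61, the relative of CTGF, was at 3.80, 3.92 and 4.39 FPKM with imatinib and 15.7, 16.4 and 18.3 FPKM with JQ1 (1.82 ± 0.11), beside 16.1 FPKM on average in DMSO.

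The YAP and TEAD list as a whole did not share the direction of its best known targets. Of 15 tested, 2 were higher with JQ1, and these were CTGF and CYR61. AJUBA, a LIM protein that restrains the Hippo kinases, was lower, at 8.50 to 10.2 FPKM with imatinib and 2.33 to 3.12 FPKM with JQ1 (log2 difference -1.51 ± 0.12). The list's median was -0.33, against -0.31 over all tested genes.

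The promoters of EGR1 and CTGF are shown because these 2 genes had the largest log2 differences in the list of immediate early genes; both carry elements known from such genes. Each window is the 250 bases before the transcription start in RefSeq, read on the gene's strand on GRCh38.p14, whereas the expression values were made on hg19. In EGR1 (chr5:138465229-138465478, plus strand) capitals mark 2 CArG boxes, the binding element of serum response factor, which 1.16% of the 35116 promoter windows in the RefSeq table hold. In CTGF (CCN2 in RefSeq, chr6:131951373-131951622, minus strand) capitals mark 3 copies of GGAATG, the TEAD core, which 11.89% of windows hold. The shares count every window with any match, however many copies it holds. Both strands were searched, the motifs and windows were chosen after the values were seen, and a match describes letters, not occupancy.
EGR1: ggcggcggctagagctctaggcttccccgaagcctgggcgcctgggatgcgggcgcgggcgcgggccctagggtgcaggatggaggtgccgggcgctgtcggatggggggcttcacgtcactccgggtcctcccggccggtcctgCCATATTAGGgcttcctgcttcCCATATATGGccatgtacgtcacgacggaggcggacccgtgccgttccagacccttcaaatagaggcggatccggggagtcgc
CTGF: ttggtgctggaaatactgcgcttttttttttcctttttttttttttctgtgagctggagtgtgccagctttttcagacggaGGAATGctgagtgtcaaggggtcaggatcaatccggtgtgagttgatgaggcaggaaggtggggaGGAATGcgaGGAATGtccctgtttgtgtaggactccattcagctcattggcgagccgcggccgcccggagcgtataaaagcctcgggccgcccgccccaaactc
The CArG boxes of EGR1 lie 105 to 96 and 83 to 74 bases before the start, and the TEAD cores of CTGF begin 169, 104 and 95 bases before it.

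**Figure D2:**
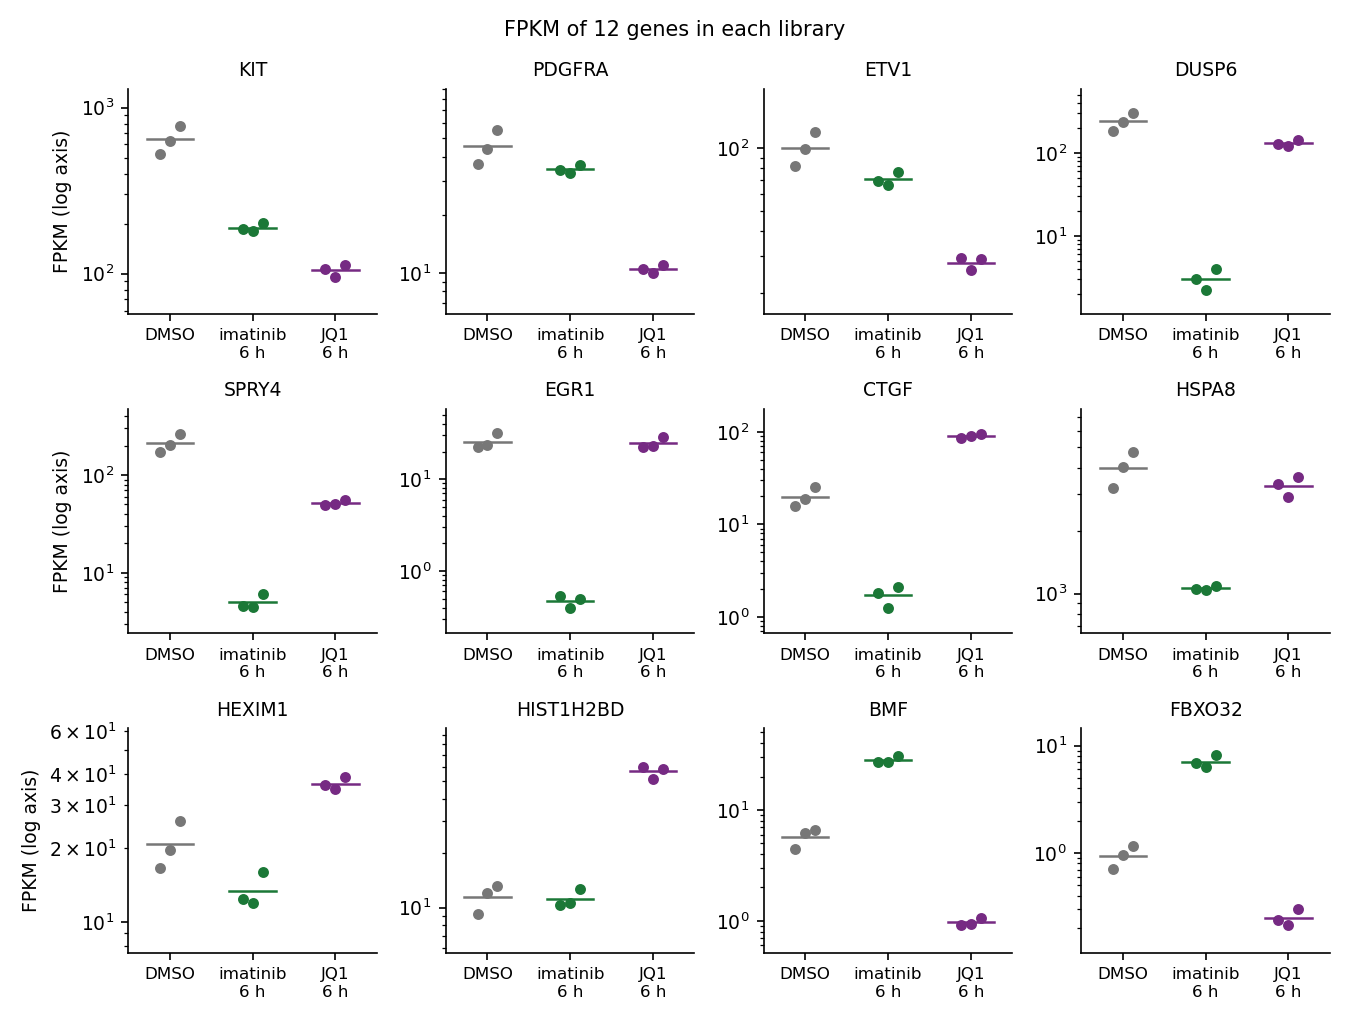
FPKM of 12 genes (y axis, log scale, one panel each) in the 3 libraries of DMSO, imatinib for 6 h and JQ1 for 6 h; points are libraries and bars are group means. DUSP6, SPRY4, EGR1, CTGF, HSPA8, HEXIM1 and HIST1H2BD are higher with JQ1 than with imatinib, PDGFRA, ETV1, BMF and FBXO32 are lower, and KIT was not called.

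Genes of the FOXO response gave the mirror image. FOXO factors turn on genes of cell death, atrophy and growth arrest when AKT is quiet. Of 26 tested FOXO targets 15 were lower with JQ1 and 1 was higher, and the median log2 difference was -1.07 against -0.31 over all tested genes. FBXO32, below 1 FPKM in every JQ1 library, passed the filter only through the imatinib libraries, so these counts describe the genes that passed. With a mean of at least 5 FPKM as the filter, 20 were tested, 11 lower and 1 higher. After ratio rescaling 11 of the 26 were lower and 1 higher. For 11 of the 15 lower members DMSO lay between the drugs, that is, imatinib was on the high side of DMSO and JQ1 on the low side. DMSO lay between the drug means for 24.1% of all lower calls and 6.7% of all tested genes. BMF, a BH3-only protein that neutralizes BCL2-type survival proteins, was at 27.1, 27.2 and 30.7 FPKM with imatinib, 0.921, 0.928 and 1.07 FPKM with JQ1, and 4.42, 6.17 and 6.58 FPKM in DMSO. The 3 groups did not overlap, and the log2 difference between the drugs was -3.89 ± 0.11 (SE, n = 3 per group), the most negative among the genes named here. FBXO32, the muscle atrophy ubiquitin ligase atrogin-1, was at 6.83, 6.35 and 8.11 FPKM with imatinib and 0.237, 0.211 and 0.300 FPKM with JQ1, near the floor of the table at about 0.1 FPKM (-2.69 ± 0.13). ERBB3, a receptor of the EGFR family that FOXO factors induce when PI3K is blocked, was at 38.1, 35.5 and 38.6 FPKM with imatinib and 5.49, 4.85 and 5.81 FPKM with JQ1 (-2.59 ± 0.11). YPEL3 was at 39.1, 42.0 and 48.5 FPKM with imatinib and 7.98, 5.86 and 7.76 FPKM with JQ1 (-2.43 ± 0.11). The 1 higher member was GADD45A, a stress sensor that p53 and other factors also control; it was picked out after its values were seen, with 10.3, 11.3 and 15.6 FPKM under imatinib, 27.3, 26.6 and 30.1 FPKM under JQ1 and a log2 difference of 1.13.

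The BCL2 family was split between its members. Of 12 tested, 3 were lower with JQ1 and 1 was higher, at a median of -0.30, beside 10.0% lower and 2.22% higher of all tested genes. Besides BMF, the lower ones were BBC3 (PUMA), another BH3-only killer, at 20.7, 19.8 and 20.1 FPKM with imatinib and 3.40, 3.36 and 3.88 FPKM with JQ1 (log2 difference -2.22 ± 0.11), and BCL2L1, which encodes the survival protein BCL-xL. BCL2L1 went from 44.3 FPKM on average with imatinib to 20.5 FPKM with JQ1 (-1.07 ± 0.11), a call lost after ratio rescaling (-0.75). The higher one was PMAIP1 (NOXA), a BH3-only inhibitor of MCL1, at 1.07, 0.644 and 1.18 FPKM with imatinib and 7.12, 5.04 and 6.61 FPKM with JQ1 (1.88 ± 0.12). BCL2L11 (BIM), the BH3-only protein whose breakdown ERK promotes, was at 4.35, 4.42 and 6.54 FPKM with imatinib and 7.10, 7.93 and 7.64 FPKM with JQ1. Its log2 difference of 0.51 ± 0.11 was under the threshold. The BH3-only genes therefore included calls in both directions within one comparison. The higher call rested on PMAIP1, which passed the filter with the help of the JQ1 libraries. With a mean of at least 5 FPKM as the filter, 10 family members were tested, 3 lower and 0 higher.

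The p53 targets were likewise mixed, with 4 of 20 higher with JQ1 and 3 lower at a median of 0.03. Among all tested genes 2.22% were higher and 10.0% lower. CDKN1A, the CDK inhibitor p21, was at 0.885, 1.07 and 1.26 FPKM with imatinib and 6.22, 5.73 and 6.37 FPKM with JQ1 (log2 difference 1.78 ± 0.12), above the DMSO mean of 2.39 FPKM. GADD45B was at 4.21, 3.75 and 4.96 FPKM with imatinib and 18.2, 19.0 and 21.7 FPKM with JQ1 (1.96 ± 0.11). PMAIP1 and GADD45A were the other higher members. After ratio rescaling 1 of the 3 lower calls was left. With a mean of at least 5 FPKM as the filter, 16 targets were tested, 2 higher and 3 lower.

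Genes used as markers of BET inhibition separated the drugs clearly, with 11 of 14 tested members higher with JQ1, 1 lower and a median log2 difference of 1.64. These counts were the same after ratio rescaling. HEXIM1, which holds P-TEFb in an inactive complex and rises when BET proteins are blocked, was at 12.4, 11.9 and 15.9 FPKM with imatinib and 36.2, 34.7 and 38.8 FPKM with JQ1. DMSO was between them at 20.7 FPKM, and the log2 difference was 1.39 ± 0.11 (SE, n = 3 per group). SERPINI1, a serine protease inhibitor of neurons, was at 11.7, 10.4 and 11.3 FPKM with imatinib and 44.0, 36.5 and 41.8 FPKM with JQ1 (1.78 ± 0.11). HIST1H2BD, a histone H2B gene, was at 10.3, 10.6 and 12.6 FPKM with imatinib and 59.9, 51.7 and 58.6 FPKM with JQ1 (2.25 ± 0.11), and here imatinib and DMSO (9.27, 12.1 and 13.1 FPKM) overlapped. HIST1H2BG and HIST1H2BJ had log2 differences of 2.34 and 1.97. The member that was lower was ZMYND8, a reader of acetylated histones, at 49.9, 48.0 and 54.5 FPKM with imatinib and 7.31, 6.94 and 7.54 FPKM with JQ1 (-2.65 ± 0.11).

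Replication-dependent histone genes beyond those markers leaned the same way. Of 45 in the list only 23 passed the filter, and of these 8 were higher with JQ1 and 0 lower. Those that passed did so partly through the JQ1 libraries, so their count describes them only. HIST1H3D was at 1.16, 1.09 and 1.90 FPKM with imatinib and 15.9, 14.8 and 16.2 FPKM with JQ1 (log2 difference 2.82 ± 0.12). HIST1H2BC was at 8.66, 8.07 and 4.98 FPKM with imatinib and 31.3, 30.7 and 31.3 FPKM with JQ1 (1.99 ± 0.11). HIST1H3B had a log2 difference of 1.64. HIST1H4H varied most between imatinib libraries (5.01, 2.04 and 0.605 FPKM, beside 7.44, 10.6 and 10.9 FPKM with JQ1). Its log2 difference of 1.77 had an adjusted p of 0.0612 with its own spread, and the call was lost. Copies of these genes are nearly identical, so reads could be split between them, and their mRNAs mostly lack the poly(A) tail on which the library kit selects.

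Genes of the BET and P-TEFb machinery had calls in both directions, 3 of 21 higher with JQ1 and 3 lower, at a median of -0.20. Over all tested genes 2.22% were higher and 10.0% lower, so the share of lower calls was near the general one. BRD2, itself a BET protein, was at 77.3, 74.6 and 86.9 FPKM with imatinib and 160, 153 and 179 FPKM with JQ1, a log2 difference of 1.03 ± 0.11 that dropped to 0.99 without imatinib replicate 2 and 0.97 without JQ1 replicate 3, just under the threshold. ELL2, a subunit of the super elongation complex, was at 1.10, 1.10 and 1.45 FPKM with imatinib and 4.54, 4.17 and 4.13 FPKM with JQ1 (1.26 ± 0.13). HEXIM2, the paralog of HEXIM1, went the other way, at 11.9, 9.89 and 12.1 FPKM with imatinib and 2.45, 2.76 and 2.97 FPKM with JQ1 (-1.72 ± 0.11). NELFA, a subunit of the pausing factor NELF, had a log2 difference of -1.30 ± 0.11. HEXIM1 was thus higher and HEXIM2 lower in the same JQ1 libraries.

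KIT itself did not reach the threshold of size between the drugs. The imatinib libraries had 185, 181 and 201 FPKM, the JQ1 libraries 107, 95.6 and 112 FPKM and the DMSO libraries 529, 626 and 777 FPKM, and no groups overlapped. The KIT log2 difference was -0.84 ± 0.11 (SE, n = 3 per group), and -0.52 after ratio rescaling. PDGFRA, the sister receptor of KIT, passed: it was at 34.1, 33.1 and 36.5 FPKM with imatinib, just under the DMSO libraries (37.0, 43.9 and 55.2 FPKM), and at 10.5, 10.0 and 10.9 FPKM with JQ1 (-1.63 ± 0.11). KITLG, the KIT ligand stem cell factor, was higher with JQ1, at 13.5, 12.1 and 12.7 FPKM against 3.17, 2.82 and 3.22 FPKM with imatinib (1.76 ± 0.11), with DMSO at 18.3 FPKM on average. PIK3R1, the regulatory subunit of PI3K, was higher as well (1.22 ± 0.11). Of 25 tested genes of KIT signaling these were the 2 higher ones and PDGFRA the 1 lower one. Without imatinib replicate 1 or without imatinib replicate 2 the lower count was 2. With 0.1 or 0.01 added to the FPKM in place of 1, the lower count was 4.

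Of 16 tested GIST lineage genes 2 were lower with JQ1 and 0 higher, a share near the 10.0% of lower calls among all tested genes. After ratio rescaling 1 was lower and 1 higher, the repressor gene HIC1 (1.12), picked out after its values were seen. ETV1, the ETS factor that with KIT defines interstitial cells of Cajal and GIST, was at 69.6, 66.8 and 77.1 FPKM with imatinib and 29.4, 25.6 and 29.0 FPKM with JQ1. The ETV1 log2 difference of -1.32 ± 0.10 became -0.99 after ratio rescaling, which ends the call. FOXF2, a forkhead factor of gut mesenchyme, was at 6.90, 6.62 and 8.92 FPKM with imatinib and 1.37, 1.08 and 1.32 FPKM with JQ1 (-1.90 ± 0.12). FOXF1, HAND1 and ANO1 did not pass, with log2 differences of -0.13, -0.27 and -0.27 on the deposited scale and of 0.20, 0.06 and 0.06 after ratio rescaling, so their sign followed the scale. FOXF1 overlapped between the groups (200, 203 and 224 FPKM with imatinib, 184, 181 and 208 FPKM with JQ1).

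Receptor tyrosine kinases other than KIT and PDGFRA were more often lower than higher with JQ1: 7 of 22 tested were lower and 1 was higher, with a median of -0.52. Among all tested genes 10.0% were lower and 2.22% higher. All JQ1 libraries lay below all imatinib libraries for 16 of the 22 receptors, beside 59.7% of all tested genes. On the ratio scale 5 were lower and 1 higher. Besides ERBB3, the largest were DDR2, a collagen receptor, at 22.2, 22.3 and 24.9 FPKM with imatinib and 6.02, 5.30 and 5.90 FPKM with JQ1 (log2 difference -1.84 ± 0.11), and ROR2, a WNT5A receptor, at 11.2, 10.6 and 12.2 FPKM and 2.67, 2.40 and 2.79 FPKM (-1.77 ± 0.11). EPHB4, a receptor for ephrin B2, had a log2 difference of -1.67 ± 0.11. The 1 higher receptor was FGFR3, picked out after its values were seen, at 0.366 to 0.474 FPKM with imatinib and 2.31 to 2.66 FPKM with JQ1 (1.3). FGFR3 passed the filter only through the JQ1 libraries, so these counts describe the genes that passed. With a mean of at least 5 FPKM as the filter, 13 receptors were tested, 5 lower and 0 higher.

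Among the 15 higher genes of largest size with at least 5 FPKM, several fall outside these lists. RASL11A, a small GTPase of the RAS superfamily, was at 7.69, 7.94 and 8.85 FPKM with imatinib and 150, 129 and 168 FPKM with JQ1, below the DMSO libraries at 210, 268 and 325 FPKM (log2 difference 4.03 ± 0.10). TNFRSF12A (Fn14), the receptor of the cytokine TWEAK, was at 14.7, 10.9 and 14.5 FPKM with imatinib and 129, 112 and 133 FPKM with JQ1 (3.13 ± 0.10). Genes known from neurons were in this set: NPTX2, a neuronal pentraxin, at 1.62, 1.71 and 2.65 FPKM with imatinib and 23.3, 21.0 and 25.3 FPKM with JQ1 (3.03 ± 0.11), and DPYSL3, a cytoskeletal regulator of axon growth, at 1.26, 1.44 and 1.62 FPKM and 19.2, 17.7 and 18.6 FPKM (3.0 ± 0.11). TUBB3, the neuronal tubulin, was the 1 higher gene among 3 tested neural and glial markers of 12 in the list, with 371 FPKM on average under JQ1, 73.6 FPKM under imatinib and 187 FPKM in DMSO (2.32 ± 0.11). The lowest of the 3 was at -0.56, not called, and 1 was called lower with a pseudocount of 0.1 or 0.01. S100B, SOX10 and ELAVL4 were near the floor. RPL3L, the muscle-type paralog of ribosomal protein L3, was at 0.196 to 0.249 FPKM with imatinib and 6.85, 8.30 and 8.98 FPKM with JQ1 (2.88 ± 0.13), and DMSO was as low as imatinib, at 0.169 to 0.376 FPKM. HOXD1 and LFNG, a glycosyltransferase that modifies Notch, had log2 differences of 2.84 and 2.73. FRG2B (2.88) and FRG2 (2.77) are near-identical copies whose reads cannot be assigned with certainty.

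The 15 lower genes of largest size span enzymes, receptors and chromatin proteins. APOBEC2, a muscle-expressed member of the cytidine deaminase family, was at 20.9, 19.1 and 22 FPKM with imatinib, 18.4, 20.9 and 25.5 FPKM in DMSO and only 1.07, 1.08 and 1.23 FPKM with JQ1 (log2 difference -3.35 ± 0.11). RTP4, an interferon-inducible receptor transporter, was at 29.4, 28.6 and 34.6 FPKM with imatinib and 3.01, 3.06 and 2.87 FPKM with JQ1 (-3.0 ± 0.11). ADRA2B, an adrenergic receptor, was at 15.3, 13.3 and 16.2 FPKM with imatinib, 1.07, 1.06 and 1.11 FPKM with JQ1 and 6.34 FPKM on average in DMSO (-2.93 ± 0.12). CLCF1, a cytokine of the interleukin-6 family, had a log2 difference of -2.90, the orphan receptor MRGPRF -2.83, the glycerolipid enzyme gene AGPAT9 -2.76 and C12orf69 -2.96. FST (follistatin), which binds activin, was at 7.84, 6.65 and 8.81 FPKM with imatinib and 0.423, 0.268 and 0.284 FPKM with JQ1 (-2.72 ± 0.13). Chromatin proteins were ZBTB38, a methyl-DNA binding zinc finger protein, at 96.8 FPKM on average with imatinib and 14.0 FPKM with JQ1 (-2.70 ± 0.10), and MTA3 of the NuRD complex, at 64.5 and 9.13 FPKM (-2.69 ± 0.11). RHOBTB1 was at 56.7 FPKM with imatinib and 8.04 FPKM with JQ1 (-2.67). DMSO was above both drugs for 5 of the 15, APOBEC2, RTP4, C12orf69 and ZMYND8 among them, and between the drugs for 10.

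The adjusted p of the largest genes is given with both kinds of spread as a description only. These genes were chosen for their size and for no overlap in the same 6 libraries, so small values were largely fixed by that choice. Over the 15 higher genes the largest adjusted p of limma was 3.13e-111 with the spread read from the trend over genes and 0.00177 with each gene's own spread, and over the 15 lower ones 8.90e-96 and 0.00176. Of the 104 named genes with a call, HIST1H4H was the only one past 0.05 with its own spread.

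Heat shock proteins, the chaperones that refold damaged proteins, had 5 of 19 members higher with JQ1 and 0 lower, at a median log2 difference of 0.16. Among all tested genes 2.22% were higher and 10.0% lower. All 5 higher members are central cytosolic chaperones or partners of HSP70. HSPA8, the constitutive HSP70 and one of the most abundant transcripts, was at 1056, 1046 and 1082 FPKM with imatinib and 3342, 2902 and 3593 FPKM with JQ1, with DMSO at 3983 FPKM on average (log2 difference 1.62 ± 0.12). HSPA1A was at 105, 98.4 and 119 FPKM with imatinib and 415, 415 and 478 FPKM with JQ1 (2.01 ± 0.11), HSPA1B had a log2 difference of 1.96, and the 2 copies are nearly identical. DNAJB1, the HSP40 partner, was at 50.4, 49.9 and 54.1 FPKM with imatinib and 125, 116 and 139 FPKM with JQ1 (1.28 ± 0.10). HSPH1, an HSP70 partner outside the naming rule and picked out after its values were seen, was the fifth (1.09). DMSO means were 418 FPKM for HSPA1A and 163 FPKM for DNAJB1, so every imatinib library of these genes lay below DMSO.

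The HSPA8 promoter is shown as the one with the highest transcript level of the group. Its 250 bases before the start (RefSeq, GRCh38.p14, chr11:123062137-123062386, minus strand) carry 2 matches to GAANNTTC, a heat shock element of inverted repeats, in capitals, at 230 to 223 and 50 to 43 bases before the start. Of all windows 5.78% hold any match to this motif.
HSPA8: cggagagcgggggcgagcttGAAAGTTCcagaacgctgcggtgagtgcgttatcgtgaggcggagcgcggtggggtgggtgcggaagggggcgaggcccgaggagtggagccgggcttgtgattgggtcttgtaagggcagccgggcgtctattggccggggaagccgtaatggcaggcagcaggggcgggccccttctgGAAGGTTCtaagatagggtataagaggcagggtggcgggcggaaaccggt

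Mitosis genes leaned to lower values in the JQ1 libraries at 6 h, and DNA replication genes did not stand apart from the other tested genes. Of 33 mitosis genes 7 were lower and 0 higher, their median was -0.69, and 29 of the 33 lay below the median of all tested genes. On the ratio scale the median was -0.37, against -0.01 over all tested genes, and 1 gene was called lower. CDC25C, the phosphatase that activates CDK1 at mitotic entry, was at 46.2, 47.3 and 50.1 FPKM with imatinib and 15.8, 14.4 and 15.6 FPKM with JQ1 (log2 difference -1.59 ± 0.11). BUB1B and TTK, kinases of the spindle checkpoint, and CENPF, a kinetochore protein, had log2 differences of -1.28, -1.19 and -1.27 and lost the call after ratio rescaling. Among 42 genes of DNA replication 4 were lower and 0 higher, at a median of -0.35. That share of lower calls is near the 10.0% of all tested genes, 22 members lay below the overall median and 20 above it, and after ratio rescaling 2 were lower and 1 higher. PRIM1, the primase subunit, was at 41.9, 43.9 and 46.1 FPKM with imatinib and 13.0, 11.5 and 12.8 FPKM with JQ1 (-1.74 ± 0.11), and E2F2 had a log2 difference of -1.44 ± 0.12. The helicase subunits MCM5 (-1.18) and MCM2 (-1.04) lost the call after ratio rescaling, and MCM2 also without imatinib replicate 3 (-0.99) or JQ1 replicate 2 (-0.99).

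MYC was low in GIST-T1 throughout, and the drugs differed in it by less than the threshold. It was at 2.28, 2.42 and 3.03 FPKM with imatinib, 1.68, 1.06 and 1.92 FPKM with JQ1 and 4.43 FPKM on average in DMSO (log2 difference -0.50 ± 0.13). MYCN was the more abundant relative in DMSO, at 133 FPKM, and was at 6.57, 5.41 and 6.89 FPKM with imatinib and 11, 11.5 and 12.5 FPKM with JQ1 (0.80 ± 0.11, and 1.10 with a call after ratio rescaling). Of 12 tested genes of the network 3 were lower with JQ1, beside 10.0% of all tested genes. All 3 encode repressor partners of MAX that oppose MYC: MNT at 8.72, 9.48 and 10.5 FPKM with imatinib and 2.30, 2.40 and 2.27 FPKM with JQ1 (-1.67 ± 0.12), MXD3 at 58.4, 60.1 and 67.2 FPKM and 19.3, 18.5 and 22.1 FPKM (-1.59 ± 0.10), and MXI1 (-1.15, or -0.85 with no call after ratio rescaling). MXD1 and MXD4, of the same kind and picked out after their values were seen, were not called (0.46 and -0.42). Ribosome biogenesis genes, typical MYC targets, had 32 of 36 members above the median of all tested genes and a median of 0.21, but 1 call in each direction, RRP9 (1.01) and PES1 (-1.05). RRP9 was not called without JQ1 replicate 3 (0.98), where 0 members were higher, and without imatinib replicate 3 there were 2. On the ratio scale 5 were higher and 0 lower. None of 55 cytosolic ribosomal protein genes was called in limma, and their log2 differences ran from -0.36 to -0.06.

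**Figure D3:**
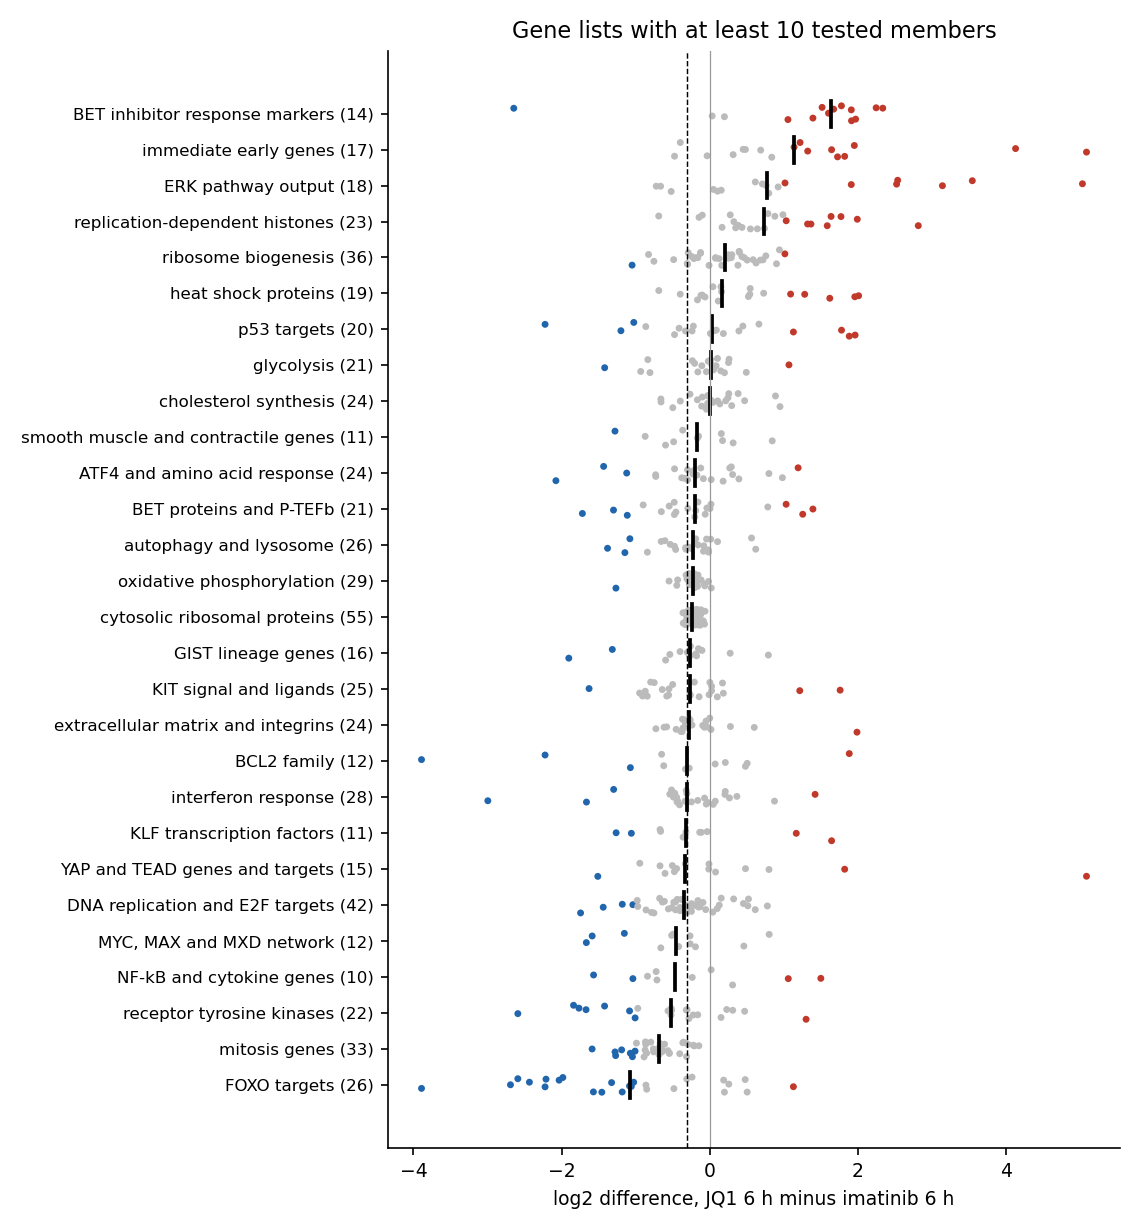
Log2 difference of JQ1 minus imatinib at 6 h (x axis) for the members of each list with at least 10 tested genes (rows, number tested in brackets), red where higher with JQ1, blue where lower and grey where not called; short black bars are list medians, and the dashed line is the median of all tested genes, -0.31. Markers of BET inhibition, immediate early genes and ERK output have the highest medians (1.64, 1.14 and 0.78), and FOXO targets and mitosis genes the lowest (-1.07 and -0.69).

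Stress and metabolic lists held few calls. Of 24 genes of the ATF4 and amino acid response 3 were lower with JQ1 and 1 higher, near the 10.0% and 2.22% of all tested genes. NUPR1, a stress-induced nuclear protein, was at 110, 109 and 128 FPKM with imatinib and 27.5, 23.5 and 29.1 FPKM with JQ1 (log2 difference -2.08 ± 0.10), SLC7A11, the cystine importer, had -1.43 and TRIB3 -1.12 (-0.82, no call, after ratio rescaling). The leucine transporter gene SLC7A5 was higher (1.19), and without imatinib replicate 3 or JQ1 replicate 2 the list had 2 higher members. In glycolysis SLC16A3, the lactate exporter, was lower (-1.42 ± 0.12), one of 2 lower members without JQ1 replicate 3. HK2, hexokinase 2, was higher at 1.07, with no call and 0 higher members without imatinib replicate 2 or JQ1 replicate 1 (0.996 at the lowest). Of 24 cholesterol synthesis genes 0 were called in limma, with 1 higher without JQ1 replicate 2. Autophagy genes had 3 of 26 lower, again near the 10.0% of all tested genes, namely the starters ULK1 (-1.15) and WIPI1 (-1.08) and the ATG8 protein gene GABARAPL1 (-1.38), of which the first 2 lost the call after ratio rescaling.

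Inflammatory and structural genes were also mixed. Among all tested genes 2.22% were higher and 10.0% lower, and the 1 lower of 11 smooth muscle genes is near that share. Of 28 interferon response genes 3 were lower and 1 higher, near the shares of all tested genes: besides RTP4, IFIT1 was at 42.8, 42.5 and 47.8 FPKM with imatinib and 13.9, 12 and 14.1 FPKM with JQ1 (log2 difference -1.66 ± 0.11), IFIT2 had -1.30, and IRF7, a regulator of interferon genes, had 1.42. Among 10 NF-kB and cytokine genes CXCL10 (1.5) and NFKBIZ (1.06) were higher and BCL3 (-1.57) and TNFAIP2 (-1.04) lower. NFKBIZ was at 0.95 without imatinib replicate 1, leaving 1 higher member, and TNFAIP2 at -0.97 without imatinib replicate 3 and -0.98 without JQ1 replicate 2, leaving 1 lower member; it was not called after ratio rescaling (-0.89). Of 24 matrix and integrin genes THBS1, the thrombospondin gene and another early response gene, was the 1 called, at 34.1, 30.6 and 36.4 FPKM with imatinib and 137, 131 and 142 FPKM with JQ1 (1.99 ± 0.10). MYLK, the myosin light chain kinase, was the 1 lower of 11 smooth muscle genes (-1.28, and -0.99 with no call after ratio rescaling), and without imatinib replicate 2 or JQ1 replicate 1 there were 2. Of 11 KLF factors KLF2 (1.65) and KLF5 (1.17) were higher and KLF9 (-1.26) and KLF11 (-1.06) lower. KLF11 lost its call without JQ1 replicate 2 (-0.98), leaving 1 lower factor, and after ratio rescaling (-0.79).

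In the separate libraries of 24 h the difference between the drugs was kept in direction for most called genes. Of the 266 genes higher with JQ1 at 6 h, 247 were above 0 at 24 h, beside 6618 of all 12009 tested genes. Of these 266, 110 were called higher (41.4%, beside 3.76% of all tested genes) and 0 were called lower. Of the 1206 lower genes 1041 were below 0, beside 5391 of the 12009. Among these 1206, 271 were called lower and 13 were called higher. The 271 made up 22.5%, beside 4.91% of the same tested genes and 5.08% of the 12272 tested over both times. The difference itself changed between times, by a contrast over the 12 libraries, for 994 genes in the positive direction (8.10%) and 192 in the negative one (1.56%). Those counts were 300 (2.44%) and 527 (4.29%) after ratio rescaling and 299 and 615 at one total, so which direction prevailed depended on the scale.

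**Figure D4:**
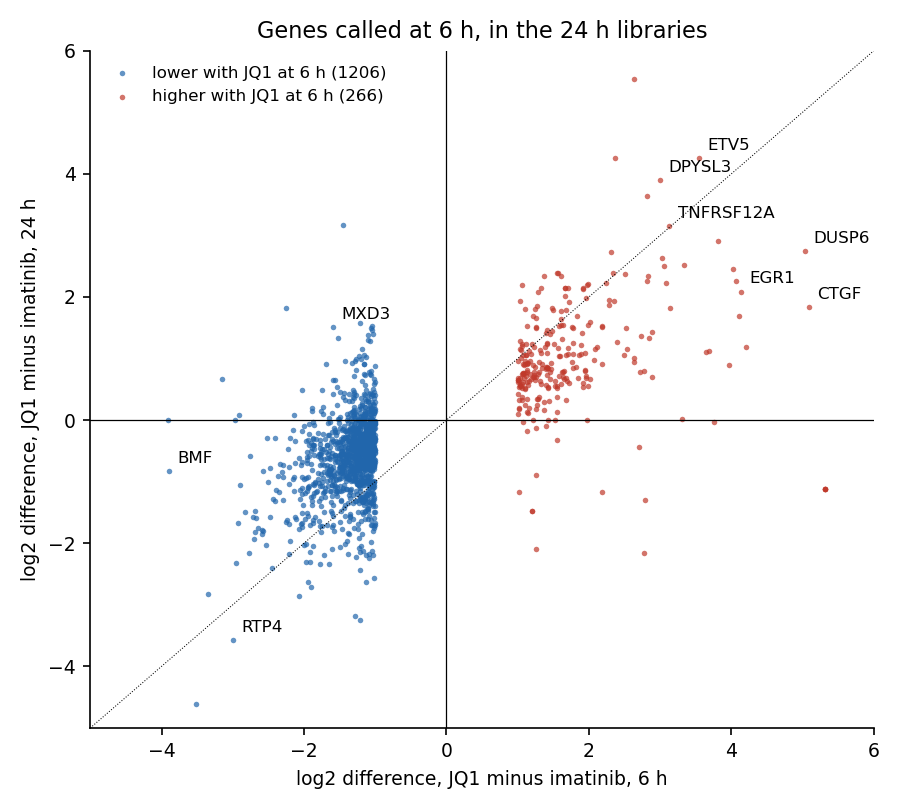
Log2 difference of JQ1 minus imatinib at 6 h (x axis) and at 24 h (y axis) for the 266 genes higher with JQ1 at 6 h (red) and the 1206 lower ones (blue), from separate libraries at each time; the dotted line marks equal differences. Most red points stay above 0, ETV5 and TNFRSF12A stay high, CTGF, DUSP6 and EGR1 come down, and BMF approaches 0 at 24 h.

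Markers of BET inhibition differed among themselves over time. HEXIM1 had a log2 difference of 1.39 at 6 h and 1.41 at 24 h, HIST1H2BD 2.25 and 2.22, and 11 of 14 markers were called higher at 24 h. SERPINI1 had 1.78 at 6 h and 1.08 at 24 h, a change of -0.70 with no call on the deposited scale but with one after ratio rescaling (-1.07) and at one total (-1.08). ZMYND8 had -2.65 and -1.75, a change of 0.90 with no call. The change was called for 1 marker on the deposited scale, HIST1H1C, a linker histone gene picked out after its values were seen (1.06 at 6 h and 2.20 at 24 h). The gap of some ERK output and immediate early genes narrowed: it changed by -3.25 for CTGF, -2.29 for DUSP6, -2.04 for EGR1 and -1.33 for SPRY4, calls that held after ratio rescaling and at one total. At 24 h DUSP6 was at 1.02 FPKM with imatinib and 12.6 FPKM with JQ1 on average. ETV5 had a log2 difference of 4.26 at 24 h, with 0.549 FPKM under imatinib and 28.9 FPKM under JQ1. Its change of 0.71 had no call. With imatinib below 1 FPKM, the added 1 makes this change smaller than that of the FPKM ratio, which widened. BMF lost most of its negative gap, with -3.89 at 6 h and -0.84 at 24 h, where JQ1 libraries averaged 17.7 FPKM and imatinib libraries 32.2 FPKM. Its change of 3.06 stayed past the threshold after ratio rescaling (2.53) and at one total (2.39).

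Mitosis genes changed sides in their median, which was -0.69 at 6 h, where 7 of 33 were called lower, or 1 after ratio rescaling. Of 33 mitosis genes 22 were called higher with JQ1 at 24 h, where their median was 1.23, and the change between times was called positive for 32, or 31 after ratio rescaling and 31 at one total. NDC80, a kinetochore protein outside that list, was at 62.3 FPKM with imatinib and 21.0 FPKM with JQ1 at 6 h, and at 5.99 FPKM and 16.6 FPKM at 24 h. CDCA3 and MXD3 did likewise, MXD3 with -1.59 at 6 h and 1.51 at 24 h. Of 42 DNA replication genes, which did not stand apart at 6 h, 33 changed in the positive direction, and 20 after ratio rescaling or at one total. CCND1 went the opposite way, from 0.76 at 6 h to -1.35 at 24 h, where imatinib libraries averaged 12.4 FPKM and JQ1 libraries 4.29 FPKM. CD24, ABI3BP and MB had, of the named genes, the most negative changes apart from CTGF, with log2 differences at 24 h of -3.50, -2.85 and -3.19, where their imatinib means were 33.6, 17.9 and 10.7 FPKM. KIT had a log2 difference of -1.73 at 24 h, a call, and the change from 6 h was -0.89, with no call on the deposited scale but with one after ratio rescaling (-1.32) and at one total (-1.33).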

How the data were processed

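The authors deposited 1 table of FPKM values for all 18 libraries, with STAR, Cufflinks and hg19 named in the submitters' processing notes without versions; how they were normalized is not given in the sources used. Per the labels' protocols, ERCC RNA was added to RNA normalised to cell count, and stranded mRNA libraries were read as single ends of 75 bases. Spike-in medians differed between the 6 libraries by -0.02 to 0.03 log2, 0 columns were left unmapped and every value was above 0. Gene names turned into dates (28, of which 18 tested) cannot be named.

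The 6 libraries were fitted in limma 3.58.1 (R 4.3.3) on log2(FPKM + 1) with an intensity trend and 4 residual degrees of freedom, two-sided, Benjamini-Hochberg over all tested genes, after tests on simulated data. The prior degrees of freedom came out infinite, so standard errors are read from the trend and are alike for genes of like level; fits with a robust and with each gene's own spread were added after seeing the data. The change between times used 12 libraries and 8 residual degrees of freedom. The 32 lists, described by counts and medians, and all members were chosen with earlier results of these data known. Named genes are 20 fixed ones, the 15 largest calls per direction with at least 5 FPKM and no overlap, up to 4 called per list and 4 per direction by time; small RNAs and clones are counted only. A few genes that the rule names are not reported here. Alternatives were other pseudocounts, filters, scalings, weights, thresholds, a replicate block, all 18 libraries and each library left out, with the tested genes kept.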

Additional observations from a re-analysis of the deposited data

Results flagged for a closer look

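The difference between JQ1 and imatinib was another at 24 h than at 6 h, by the limma contrast over 12 libraries, for 994 genes in the positive and 192 in the negative direction, and for 48 of the genes named here, 28 positive and 20 negative. After ratio rescaling 35 of the 48 were called and at one total 34. The 13 not called after ratio rescaling were 12 positive changes (ADRA2B, MRGPRF, FST, MTA3, RHOBTB1, YPEL3, NELFA, MNT, SLC7A11, GABARAPL1, ULK1 and ROR2) and the negative one of FOS; at one total these 13 and RPL3L were not called. Values are log2 differences at 24 h minus 6 h.

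The ERK output and early genes with a negative change were CTGF (-3.25), DUSP6 (-2.29), EGR1 (-2.04), SPRY2 (-1.39), SPRY4 (-1.33), THBS1 (-1.44), FOS (-1.16) and CCND1 (-2.11). Also negative were FRG2B (-2.19), FRG2 (-1.96), RASL11A (-1.58), HOXD1 (-1.50), RPL3L (-1.45), LFNG (-1.37), ELL2 (-1.39), HSPA1A (-1.34), HSPA1B (-1.28), CD24 (-2.58), ABI3BP (-2.53) and MB (-2.36).

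Cell cycle genes had positive changes: NDC80 (2.85), CDCA3 (2.57), TTK (2.34), CENPF (2.26), BUB1B (2.24), CDC25C (2.24), PRIM1 (2.23), E2F2 (1.88), MCM2 (1.54), MCM5 (1.45) and MXD3 (3.09). BMF (3.06), BBC3 (1.75) and YPEL3 (1.16) of the FOXO targets changed the same way, as did AGPAT9 (2.19), CLCF1 (1.84), MRGPRF (1.33), ADRA2B (1.25), MTA3 (1.22), FST (1.15), RHOBTB1 (1.08), IFIT1 (1.62), ULK1 (1.35), GABARAPL1 (1.32), ROR2 (1.25), SLC7A11 (1.14), MNT (1.12) and NELFA (1.01). Groups of 3 libraries were too small for a check of outlying values.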

How the results depend on the processing

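The counts of 266 higher and 1206 lower genes moved with the scale and the threshold: 437 and 539 after ratio rescaling, 1404 and 6823 with adjusted p alone, 131 and 298 at a log2 difference of at least 1.5, and 1868 lower with a pseudocount of 0.01. Leaving out one library gave 248 to 296 higher and 1007 to 1352 lower genes, and each gene's own spread 233 and 1182. The 994 positive changes between times became 300 after ratio rescaling, 299 at one total, 361 at one total without the MIR1244 rows, 1572 with a pseudocount of 0.01, 5879 with adjusted p alone and 232 at 1.5. The 192 negative ones became 527, 615, 506, 446, 1035 and 58 in that order, 406 with a pseudocount of 0.1, 118 with a mean of at least 5 FPKM and 297 with array weights. One library left out gave 773 to 1283 positive and 165 to 251 negative changes. The causes were not tested. The ratio of summed FPKM ran from 0.921 to 1.01 with one library left out, above 1 without JQ1 replicate 2, and was 0.900 (exact permutation p = 0.2) without MIR1244, whose rows held 35.9% to 42.9% of each total. FOXF1 turned to 0.20 after ratio rescaling and 0.026 at one total without MIR1244, HAND1 to 0.060 and ANO1 to 0.056 after ratio rescaling. The replicate block gave 253 higher and 1194 lower genes; same-numbered libraries had correlations of 0.014, -0.053 and -0.083 in their deviations, so the numbers did not pair them, and the block was not run between times because the JQ1 24 h numbers do not match. Motif shares planned for called genes are void, since 69.2% of higher and 77.6% of lower calls matched a promoter. Depth is unknown and limits genes near 0.1 FPKM most.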
